A study of Mus musculus with 50 samples.

Results

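Tcf7l2 and Bcl11b are transcription factor genes that mark brain regions other than the hypothalamic paraventricular nucleus (PVN). Their spots were read here as a view of what the tissue pools held. The members were all non-control cDNA clones of the array that carry either gene, 6 of 22824 clones, with 3 clones of each gene. The 3 Tcf7l2 clones (spots 963, 3616 and 9018) bear the full name of the gene. No spot (0) bears the full name of Bcl11b. Its 3 clones (spots 11829, 12713 and 18778) bear RIKEN cDNA names that RefSeq lists as synonyms of Bcl11b. Both genes were picked from earlier results of these same arrays, Tcf7l2 for its values in the non-stressed strains and in DBA/2J mice at 8 h, and Bcl11b for its value in C57BL/6J mice at 8 h. In those comparisons their values are therefore a description with no test.

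RNA was micropunctured from the PVN of male DBA/2J and C57BL/6J mice aged 3 to 5 months and housed singly. The authors stained the sections with cresyl violet afterwards as a check of the puncture, whose outcome the paper does not describe. Stressed animals swam for 5 min and were killed 4 h or 8 h later, and non-stressed animals had not swum. All animals died at the same hour of the day. Each of the 6 conditions was 1 pool of animals, and its RNA was amplified. The 5 comparisons were the non-stressed DBA/2J pool over the non-stressed C57BL/6J pool and, in each strain, the pools at 4 h and 8 h over the non-stressed pool of that strain. Each comparison was hybridised on 10 two-colour arrays, 5 in either dye orientation. Because these 10 arrays all carried RNA of the same pair of pools, standard errors and p-values cover technical error alone. They compare pools rather than conditions, and how far single animals varied is unknown. Both times of a strain share its non-stressed pool, and the non-stressed DBA/2J pool entered 3 comparisons.

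Tcf7l2 belongs to the TCF/LEF family of HMG-box proteins, which bind DNA and recruit beta-catenin when a Wnt signal stabilises it. In the adult mouse brain it is best known as a marker of thalamic and habenular neurons. Bcl11b, also called CTIP2, is a zinc finger repressor that works with chromatin-remodelling complexes, and it is known as a marker of deep-layer cortical projection neurons and of striatal medium spiny neurons. The thalamus lies above and behind the PVN, and the cortex and striatum lie farther from it. In pooled tissue, fewer cells of a type and less RNA per cell cannot be told apart.

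Ratios are log2 values, with DBA/2J on top between strains and the stressed pool on top after swimming, as the dye labels give them. The published folds run the opposite way in all 5 comparisons, and the files did not settle which direction holds, so the main values are also given with the sign turned. The paper's real-time PCR, run on single animals without pooling, found Gnai2 raised at 4 h and App raised at 8 h after stress in DBA/2J. Its in situ hybridisation in the PVN also gave an up-regulation. Both methods ran in the direction of its published folds, and neither measured Tcf7l2 or Bcl11b. If the published direction holds, each higher or lower below turns round. A clone was counted as called when its mean log2 ratio was at least 0.50 either way, the threshold of the study, and its limma adjusted p was under 0.05. For the values a gene was picked on, and for differences that use them, a call is part of the description and is no support. The arrays carried little common signal across dye orientations. Over all clones, arrays of opposite dye orientation in a comparison correlated between -0.11 and 0.07. In C57BL/6J at 8 h every such pair was negative (-0.105 to -0.061), and the mean ratios of both orientations correlated at -0.26. Arrays of the same orientation there had median correlations of 0.11 and 0.14. In the other comparisons the mean ratios of both orientations correlated at -0.11 to 0.12. The empty spots were brightest on the DBA/2J 8 h arrays, where their 95th percentile was 1426 to 4367 intensity units and 6.69% to 10.2% of clones exceeded it. It was 171 to 1557 units in the other comparisons. All 50 arrays entered.

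The clones differed widely in whether they could be measured at all. The Tcf7l2 clone at spot 3616 exceeded the empty spots (their 95th percentile on the array, in at least 1 dye) on 49 of 50 arrays. The exception was replicate 5 of the C57BL/6J 4 h comparison, where the spot read 65.9 units in the 4 h channel and 84.3 units in the non-stressed channel. The Bcl11b clone at spot 11829 exceeded the empty spots on 31 of 50 arrays, with 10 of 10 in C57BL/6J at 4 h, 9 in C57BL/6J at 8 h, 8 in DBA/2J at 4 h, 3 in the non-stressed strains and 1 in DBA/2J at 8 h. The remaining clones were dim: spot 12713 exceeded them on 13 arrays, spot 18778 on 11, spot 9018 on 9 and spot 963 on 0. Over all 22824 clones, 23.0% exceeded the empty spots on 25 or more arrays. So each gene rested on 1 clone, and the other clones of the same gene gave little that could be read.

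**Figure D1:**
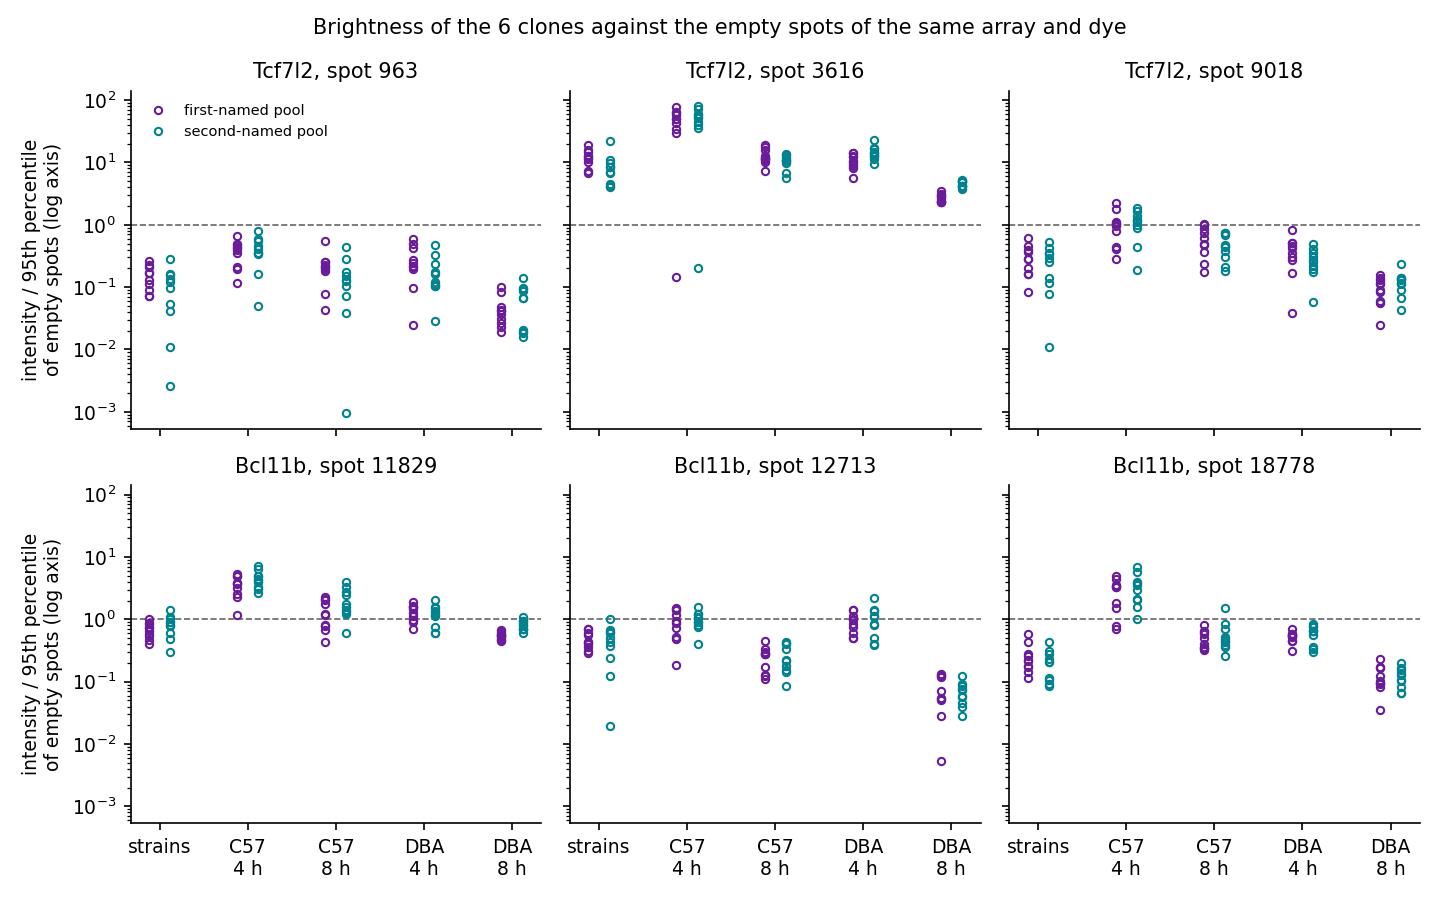
Intensity of the 6 clones divided by the 95th percentile of the empty spots on the same array and dye (log axis, dashed line at 1), for the 10 arrays of each comparison, with the first-named pool (DBA/2J or stressed) left and the second-named pool right (C57 is C57BL/6J, DBA is DBA/2J, strains is non-stressed DBA/2J and C57BL/6J). Spot 3616 lies above the line on all arrays but replicate 5 of C57BL/6J at 4 h, and spot 963 lies below it on all 50.

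Tcf7l2 read higher in the non-stressed DBA/2J pool than in the non-stressed C57BL/6J pool. Spot 3616 had a lowest, median and highest intensity of 5876, 11404 and 20038 units in the DBA/2J channel, against 4102, 5257 and 7455 units in the C57BL/6J channel. The array ratios had a lowest, median and highest value of 0.46, 0.61 and 1.14, so all 10 arrays lay above 0. With DBA/2J in Cy5 they ranged over 0.49 to 1.14 and with DBA/2J in Cy3 over 0.46 to 0.86, so the dye orientations overlapped. The fitted log2 ratio was 0.67 (standard error 0.13), or 1.59-fold, and -0.67 with the sign turned. It was 0.65 over the 7 arrays of the first scan day and 0.71 over the 3 arrays of the second. In size, 2.86% of all clones had a larger ratio. Of the 6 members, 1 was called higher and 0 lower, where 3.62% of all clones were called in either direction.

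The same clone then read lower in the stressed DBA/2J pools than in the non-stressed one. At 8 h its intensities were 4501, 5706 and 10818 units (lowest, median, highest) in the 8 h channel, against 6600, 10402 and 12573 units in the non-stressed channel. The array ratios were -0.86, -0.49 and -0.23 at the lowest, median and highest, all 10 below 0. The log2 ratio was -0.52 (standard error 0.08), 1.43-fold lower at 8 h, and 0.52 with the sign turned. Its means by scan day were -0.57 over 3 arrays, -0.56 over 4 and -0.41 over 3. Here 1 of 6 members was called lower and 0 higher, beside 0.158% of all clones in either direction. With any 1 array left out, the calls over all clones fell to 1, against 36 with all 10. The Tcf7l2 ratio lay close to the fold threshold, and with any 1 of the 10 arrays left out it stayed between -0.54 and -0.49 while the clone was no longer called.

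At 4 h in DBA/2J the ratio of spot 3616 had the same sign but was smaller. The array ratios were -0.76, -0.26 and 0.05 at the lowest, median and highest, below 0 on 9 of 10 arrays. The log2 ratio was -0.29 (standard error 0.12, limma adjusted p = 0.39), and it was -0.36 over the 8 arrays of the first scan day and -0.02 over the 2 arrays of the second, both of which had the 4 h pool in Cy3. None of the 6 members (0) was called at this time, beside 0.153% of all clones. Between 8 h and 4 h in DBA/2J, the change of this clone differed by -0.23 (standard error 0.12), which is given without a test because the 8 h value was used in the choice.

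In C57BL/6J the clone did not repeat the DBA/2J pattern. At 4 h the array ratios were -0.25, -0.10 and 0.16 at the lowest, median and highest and lay on both sides of 0, with a log2 ratio of -0.09 (standard error 0.08, limma adjusted p = 0.75). At 8 h they were 0.05, 0.31 and 0.53, above 0 on 10 of 10 arrays, with a log2 ratio of 0.29 (standard error 0.11, limma adjusted p = 0.46). So Tcf7l2 at 8 h lay above the non-stressed level on every C57BL/6J array and below it on every DBA/2J array. In C57BL/6J, 0 of 6 members were called at 4 h, beside 0.289% of all clones. At 8 h the single called member was a Bcl11b clone, beside 0.0832% of all clones.

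Differences between comparisons were fitted directly over 20 arrays. The strain difference of the 8 h change of spot 3616, DBA/2J minus C57BL/6J, was -0.80 (standard error 0.12), or 0.80 with the sign turned, a description because its DBA/2J side was picked. That difference met the call thresholds, as did 0.600% of all clones, but a call on picked values is no support. The strain difference of the 4 h change was -0.20 (standard error 0.12, limma adjusted p = 0.52), with an interval of -0.45 to 0.04. Within C57BL/6J the 8 h change minus the 4 h change was 0.37 (standard error 0.12, limma adjusted p = 0.24), with an interval of 0.13 to 0.61 before adjustment over all clones. No member (0 of 6) was called in the 4 h strain difference or in the differences between times of C57BL/6J or DBA/2J, beside 2.34%, 0.495% and 1.00% of all clones.

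**Figure D2:**
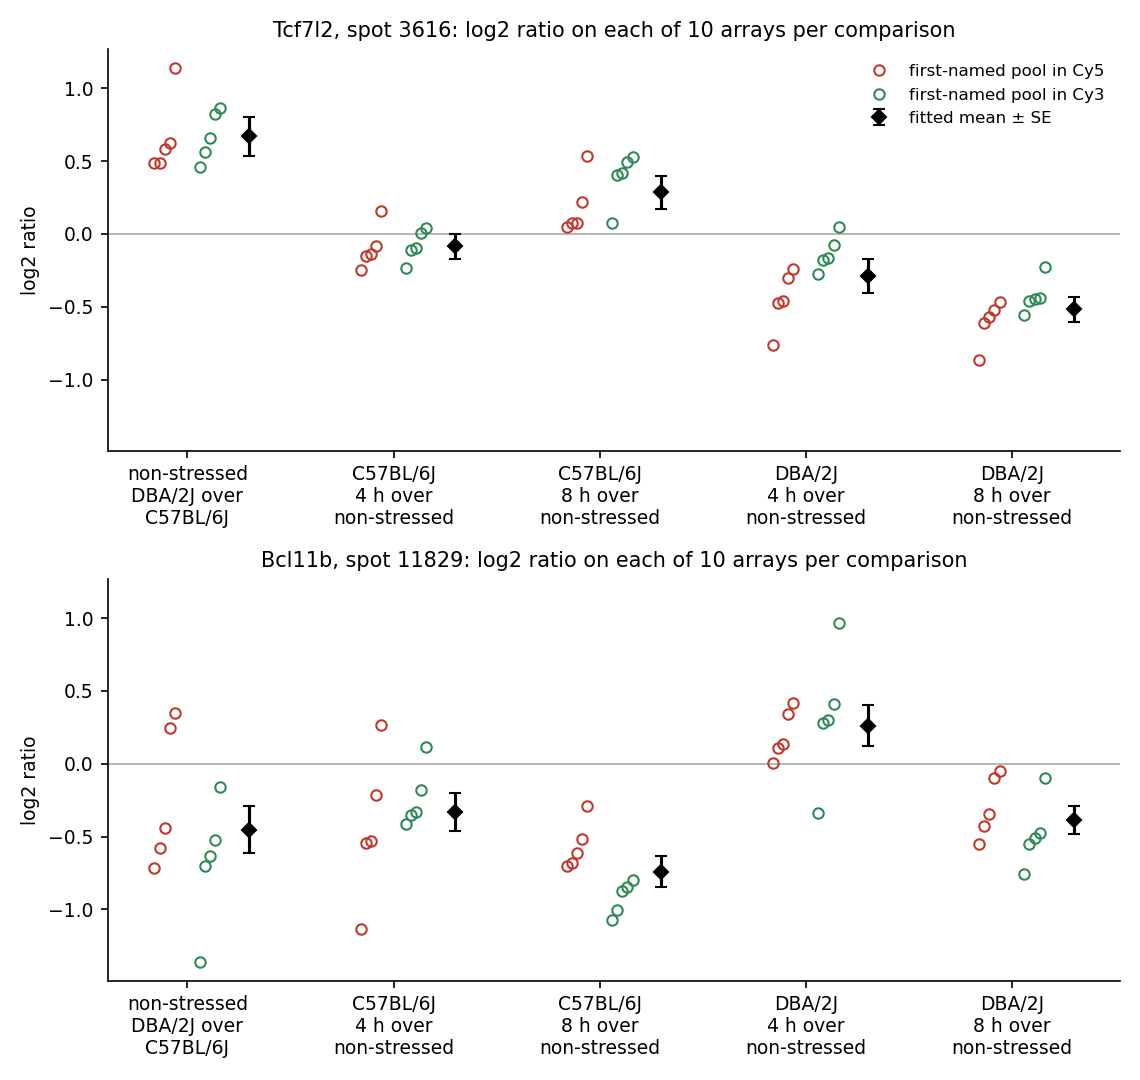
Log2 ratio on each array (circles, by the dye of the first-named pool) and fitted mean with its standard error (diamond) for Tcf7l2 spot 3616 (top) and Bcl11b spot 11829 (bottom) in the 5 comparisons, 10 arrays each. Tcf7l2 lies above 0 on all arrays between the non-stressed strains and in C57BL/6J at 8 h and below 0 on all arrays of DBA/2J at 8 h; Bcl11b lies below 0 on all arrays at 8 h in both strains.

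The other Tcf7l2 clones were too dim for a fold. Spot 963 had log2 ratios of 0.38 between the non-stressed strains, -0.01 and 0.27 in C57BL/6J at 4 h and 8 h, and 0.37 and -0.29 in DBA/2J at 4 h and 8 h. Its standard errors were 0.17 to 0.32, and none of its ratios was called. In the same order, spot 9018 had 0.15, -0.11, 0.11, 0.30 and -0.31, with standard errors of 0.18 to 0.31 and array values between -2.13 and 2.37. Their signs matched those of spot 3616 between the strains, in C57BL/6J and in DBA/2J at 8 h, and were opposite in DBA/2J at 4 h. Spot 963 was not above the empty spots on any array. Spot 9018 exceeded them on 8 of 10 arrays in C57BL/6J at 4 h, on 1 in C57BL/6J at 8 h and on 0 elsewhere.

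Bcl11b read lower in the C57BL/6J pool at 8 h than in the non-stressed C57BL/6J pool. Spot 11829 had intensities of 275, 650 and 879 units (lowest, median, highest) in the 8 h channel, against 718, 1047 and 1764 units in the non-stressed channel. All 10 array ratios lay below 0, at -1.07, -0.75 and -0.29 (lowest, median, highest). The log2 ratio was -0.74 (standard error 0.11), 1.67-fold lower at 8 h, and 0.74 with the sign turned. The dye orientations stood apart, with a mean of -0.56 (-0.70 to -0.29) with the 8 h pool in Cy5 and of -0.92 (-1.07 to -0.80) with it in Cy3. Scan days gave -0.55 over 4 arrays, all with the 8 h pool in Cy5, and -0.87 over 6 arrays, 1 of them so labelled, so dye and scan day can hardly be told apart here. In size, 0.407% of all clones had a larger ratio. Of the 6 members 1 was called lower, the single clone called lower among all 19 called in this comparison. That count moved with the processing, with 0 clones called lower without a dye term, 17 with median centring and 66 in 1 fit of all 50 arrays. Leaving out 1 array kept the ratio between -0.77 and -0.72 but ended the call in 9 of 10 cases.

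In the other comparisons Bcl11b was not called. At 8 h in DBA/2J the array ratios of spot 11829 were -0.76, -0.45 and -0.05 at the lowest, median and highest, below 0 on 10 of 10 arrays, with a log2 ratio of -0.39 (standard error 0.10, limma adjusted p = 0.15). Its 8 h channel exceeded the empty spots on 0 of these arrays and the non-stressed channel on 1, so the ratio rests on dim signal. Bcl11b thus read below the non-stressed level on every array at 8 h in both strains, with the strain difference of the 8 h change at 0.35 (standard error 0.13), given without a test.

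At 4 h the ratios of the strains had opposite signs, and their difference did not pass the test. In DBA/2J spot 11829 ranged over -0.34 to 0.96 with a median of 0.29, above 0 on 9 of 10 arrays (log2 ratio 0.26, standard error 0.14, limma adjusted p = 0.54). In C57BL/6J it ranged over -1.13 to 0.27 with a median of -0.34, below 0 on 8 of 10 arrays (log2 ratio -0.33, standard error 0.13, limma adjusted p = 0.32). The ranges overlapped, and the strain difference of the 4 h change, DBA/2J minus C57BL/6J, was 0.59 (standard error 0.18, limma adjusted p = 0.099), with an interval of 0.24 to 0.95 before adjustment over all clones.

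Between times, the 8 h change minus the 4 h change of spot 11829 was -0.65 in DBA/2J (standard error 0.16, limma adjusted p = 0.050, just above the threshold) and -0.41 in C57BL/6J (standard error 0.16, no test). The DBA/2J value rests on the dim 8 h signal given above, and the dim spots 12713 and 18778 differed by 0.08 and 0.01 there. Between the non-stressed strains, the array ratios of spot 11829 were -1.36, -0.55 and 0.35 at the lowest, median and highest, with 8 of 10 below 0 and a log2 ratio of -0.45 (standard error 0.16, limma adjusted p = 0.17). By scan day this was -0.29 over 7 arrays and -0.84 over 3, so the size of the strain ratio moved with the day, and the part of the scan day in it was not tested. The DBA/2J channel of this spot exceeded the empty spots on 0 arrays there and the C57BL/6J channel on 3.

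Of the dim Bcl11b clones, spot 12713 had log2 ratios of 0.05 between the strains, -0.18 and -0.23 in C57BL/6J at 4 h and 8 h, and 0.04 and 0.11 in DBA/2J at 4 h and 8 h. Spot 18778 had 0.12, -0.29, -0.34, -0.05 and -0.05 in the same order. Both shared the negative sign of spot 11829 in C57BL/6J, and neither was called anywhere. Spot 18778 exceeded the empty spots on 10 of 10 arrays in C57BL/6J at 4 h, where its ratio lay below 0 on 8 of them (standard error 0.12, limma adjusted p = 0.32). That comparison is the 1 in which more than 1 Bcl11b clone stood clear of the empty spots on every array, and their ratios of -0.33 (spot 11829) and -0.29 (spot 18778) did not pass the test.

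Because the 5 comparisons link the 6 pools without a loop, each pool has 1 level relative to the non-stressed C57BL/6J pool. For Tcf7l2 spot 3616 the log2 level was 0.67 in non-stressed DBA/2J, 0.38 in DBA/2J at 4 h and 0.15 in DBA/2J at 8 h, against -0.09 in C57BL/6J at 4 h and 0.29 in C57BL/6J at 8 h (standard errors 0.08 to 0.11 from all 50 arrays). With the sign turned, the DBA/2J levels were -0.67, -0.38 and -0.15 and the C57BL/6J levels 0.09 and -0.29. By the dye labels the order of the pools was non-stressed DBA/2J, DBA/2J at 4 h, C57BL/6J at 8 h, DBA/2J at 8 h, non-stressed C57BL/6J and C57BL/6J at 4 h, and it reverses with the sign. The order rests in part on the values the gene was picked on. The first step of 0.29 is the DBA/2J 4 h ratio, with a standard error of 0.08 in this fit and 0.12 in its own, where it was not called. The 4 further steps of 0.09, 0.14, 0.15 and 0.09 were each under 2 of their standard errors (0.08 to 0.14).

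For Bcl11b spot 11829 the log2 level was -0.45 in non-stressed DBA/2J, -0.19 in DBA/2J at 4 h and -0.84 in DBA/2J at 8 h, against -0.33 in C57BL/6J at 4 h and -0.74 in C57BL/6J at 8 h (standard errors 0.12 to 0.16). With the sign turned they were 0.45, 0.19 and 0.84 in DBA/2J and 0.33 and 0.74 in C57BL/6J. By the dye labels the non-stressed C57BL/6J pool was highest and both 8 h pools lowest, which reverses with the sign. The DBA/2J 8 h level sums the strain and DBA/2J 8 h ratios, in which this spot exceeded the empty spots on 3 and 1 of 10 arrays. The steps between neighbours were 0.19, 0.14, 0.12, 0.29 and 0.10 with standard errors of 0.16 to 0.20, so no pool stood apart from its neighbour by 2 standard errors. The spot 3616 and 11829 ratios had a Pearson r of -0.38 over the 50 arrays, which share pools, and all other pairs of members lay between -0.19 and 0.24.

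**Figure D3:**
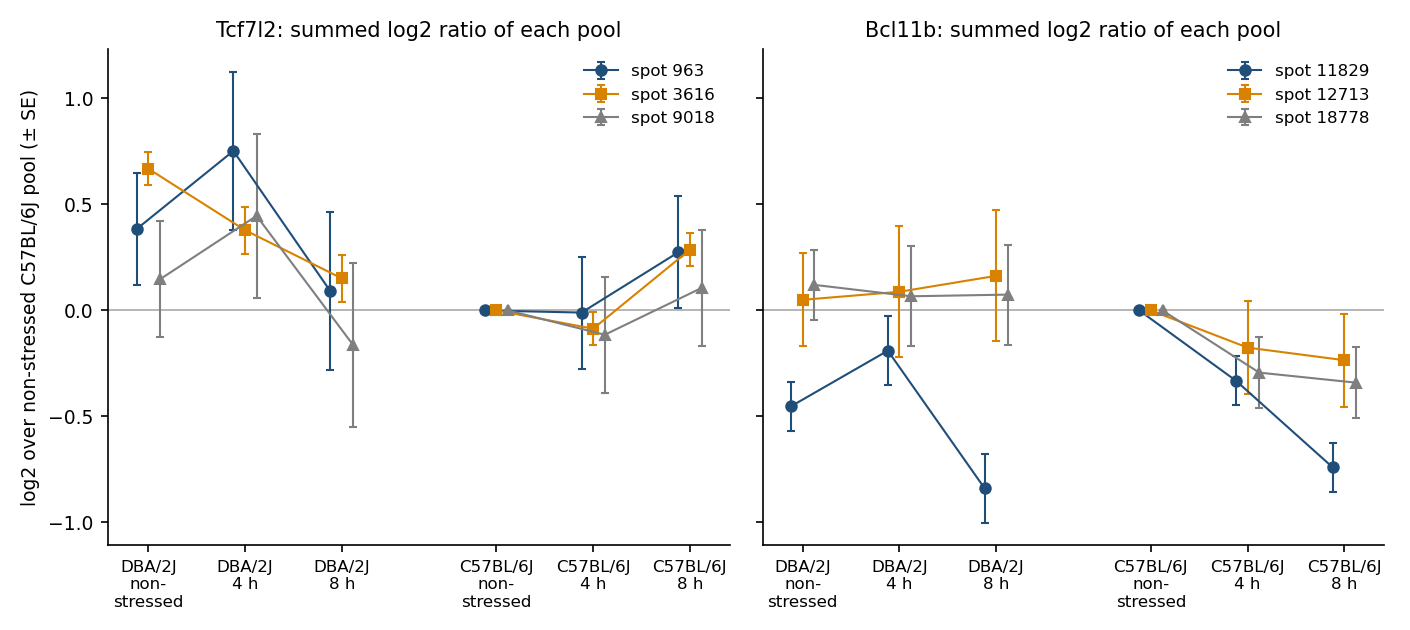
Log2 level of each pool relative to the non-stressed C57BL/6J pool (0 by definition), with standard errors from all 50 arrays, for the 3 clones of Tcf7l2 (left) and of Bcl11b (right); DBA/2J pools stand left and C57BL/6J pools right, each in the order non-stressed, 4 h, 8 h. Tcf7l2 spot 3616 is at 0.67, 0.38 and 0.15 in the DBA/2J pools in that order, and Bcl11b spot 11829 is at -0.84 and -0.74 in the 8 h pools; all levels change sign if the published direction holds.

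To set both genes beside other markers of the same regions, the clones of each region list were counted. The thalamus list had 31 clones of 17 genes. Between the non-stressed strains 2 were called higher (Lef1 spot 10084 at 0.74 and Tcf7l2 spot 3616) and 2 lower (Rora spot 9583, a nuclear receptor gene, at -0.75, and Lef1 spot 14574 at -0.69). Over all clones 3.62% were called in that comparison. The median of the list was 0.03, beside 0.01 over all clones. The clones of Lef1, a TCF/LEF relative of Tcf7l2, thus had opposite signs. Rora spot 9583 exceeded the empty spots on 0 of those 10 arrays and Lef1 spot 10084 on 2, while Lef1 spot 14574 did on 10.

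In DBA/2J at 8 h, Tcf7l2 spot 3616 was the single called clone of the thalamus list, beside 0.158% of all clones. The median of the list was -0.13 (0.001 over all clones), and the clones ran from -0.84 (Rora spot 17566, limma adjusted p = 0.14, above the empty spots on 0 arrays) to 0.41 (Adarb1 spot 4547). None of the 31 was called in DBA/2J at 4 h or in C57BL/6J at 4 h or 8 h, where the medians were 0.01, -0.01 and -0.03. Over all clones 0.153%, 0.289% and 0.0832% were called there, so a list of this size would hold few calls. The extremes there were Zic4 spots 5294 and 12964 at 0.54 and -0.33 in DBA/2J at 4 h, Rora spot 17566 and Nexn spot 21709 at 0.67 and -0.47 in C57BL/6J at 4 h, and Lef1 spot 10084 and Nexn spot 1866 at 0.47 and -0.44 in C57BL/6J at 8 h, with limma adjusted p from 0.27 to 0.62.

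Few clones of the list could be read in each comparison. Clones that exceeded the empty spots on 5 or more of the 10 arrays of a comparison were taken after the values were seen. Besides Tcf7l2 they were 7 between the strains, with log2 ratios of -0.69 to 0.35 and 3 of 7 above 0. In DBA/2J at 8 h only 2 remained, and both exceeded the empty spots on 10 of 10 arrays. Rora spot 19752 had a log2 ratio of -0.26 there (standard error 0.09, limma adjusted p = 0.29), the sign of Tcf7l2. Prkcd spot 18615, which encodes protein kinase C delta of thalamic relay neurons, had 0.22 (standard error 0.08, limma adjusted p = 0.29), the opposite sign. Between the strains Prkcd had 0.35 (limma adjusted p = 0.21) and Rora spot 19752 had -0.09 (limma adjusted p = 0.80). The readable thalamus clones thus had both signs in each of these comparisons.

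The list for cortex, hippocampus and striatum had 41 clones of 21 genes. Bcl11b spot 11829 in C57BL/6J at 8 h was its single called clone over all 5 comparisons. Over all clones 3.62% were called between the strains and 0.0832% to 0.289% after stress, so a list of this size would hold few calls. The medians of the list were -0.04 between the strains, 0.05 and -0.02 in C57BL/6J at 4 h and 8 h, and -0.04 and 0.002 in DBA/2J at 4 h and 8 h. Highest and lowest were Mef2c spot 14090 (0.53) and Fezf2 spot 8896 (-0.68) between the strains, Foxp1 spot 3107 (0.41) and Tbr1 spot 10908 (-0.35) in C57BL/6J at 4 h, and Mef2c spot 8612 (0.42) and Bcl11b in C57BL/6J at 8 h. In DBA/2J they were Foxp1 spot 17833 (0.46) and Rasd2 spot 15699 (-0.61) at 4 h, and Slc17a7 spot 12991 (0.64) and Pde10a spot 16453 (-0.42) at 8 h. Besides Bcl11b and Rasd2, these are cortical and striatal transcription factors, a vesicular glutamate transporter and a striatal phosphodiesterase. None of the highest and lowest clones except Bcl11b was called.

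Besides Bcl11b, 8 clones of that list exceeded the empty spots on 5 or more of the 10 arrays in C57BL/6J at 8 h. Their log2 ratios were -0.12 to 0.41, with 6 of 8 above 0 and 0 called. Wfs1 spot 15108 (wolframin), bright on all 50 arrays, had -0.07 there. The clones of Nrgn (neurogranin, of forebrain excitatory neurons) had opposite signs, 0.14 at spot 14890 and -0.12 at spot 17127, each bright on 10 of 10 arrays. The Ppp1r1b clone, a striatal neuron marker, exceeded the empty spots on 0 of 50 arrays.

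**Figure D4:**
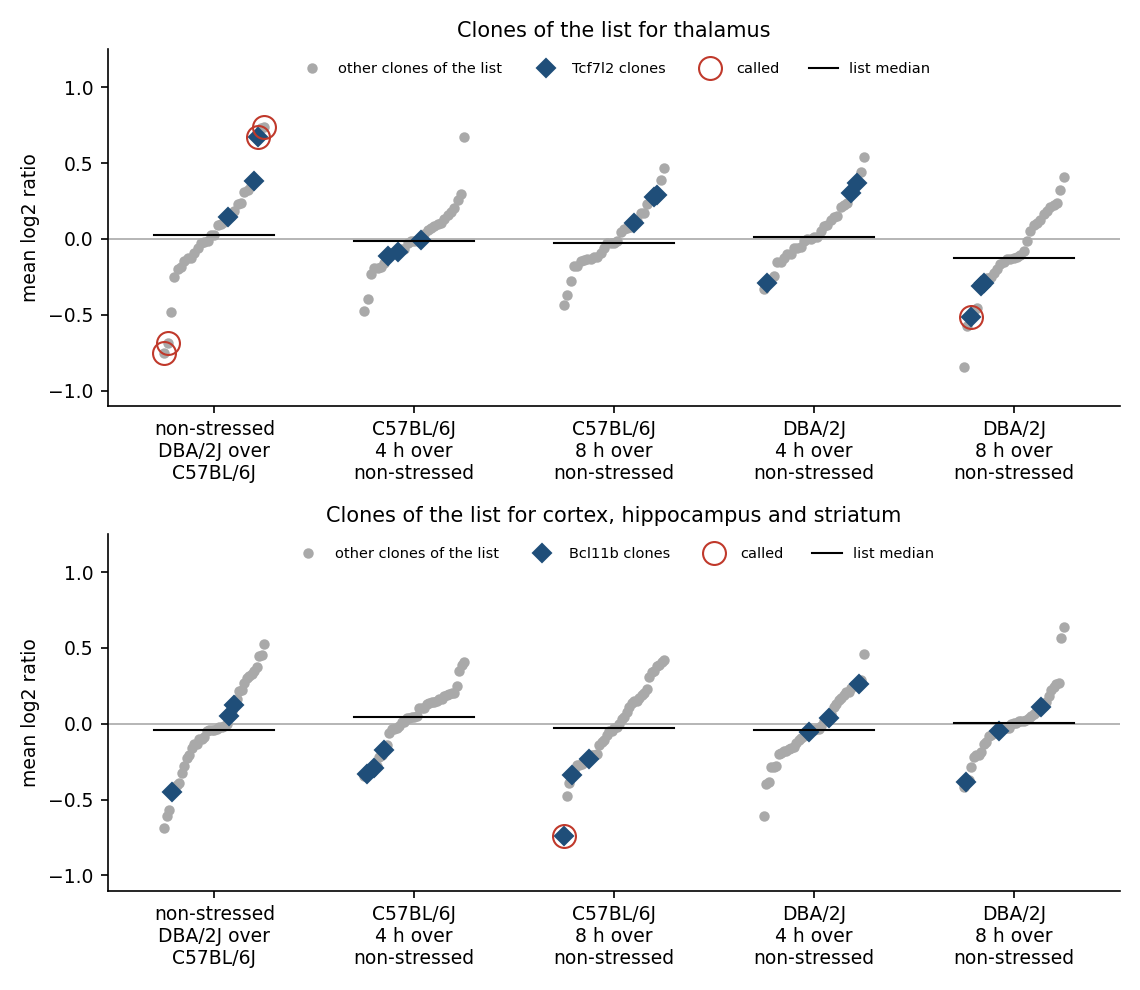
Mean log2 ratio of every clone of the thalamus list (top, 31 clones) and of the cortex, hippocampus and striatum list (bottom, 41 clones) in each comparison, sorted by value, with Tcf7l2 or Bcl11b clones as diamonds, called clones ringed and the list median as a line. The medians lie between -0.13 and 0.05 in all 5 comparisons while the called members lie near or at the edge of the lists.

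For the labelled tissue itself, 4 of 7 genes of the PVN list had a clone, and Crh, Sim1 and Otp had none. Their 4 clones exceeded the empty spots on 42 (Pou3f2), 30 (Trh), 18 (Avp) and 4 (Oxt) of 50 arrays, so they give a limited view of it. Trh, thyrotropin-releasing hormone, was called lower in DBA/2J at 4 h (log2 ratio -0.75, standard error 0.12, limma adjusted p = 0.031), where Tcf7l2 and Bcl11b were not called, and none of the 4 was called elsewhere. Of 11 clones of other hypothalamic and preoptic nuclei, 0 were called in any comparison. Between the non-stressed strains, where Tcf7l2 was higher in DBA/2J, further cell type markers were called too, beside 3.62% of all clones. All 4 called astrocyte clones of 31 were of Glul, glutamine synthetase, and were higher at 0.85 to 1.22. Of 35 myelin and oligodendrocyte clones 7 were higher and 2 lower, with Mbp spots 12775 and 10632 at 1.10 and 1.08 and Cnp spot 13431 at -1.05. Of 6 red blood cell clones, Hbb-b1 spots 21085 and 13531 were higher at 1.05 and 0.77. A further Hbb-b1 clone, spot 12985, exceeded the empty spots on 10 of 10 arrays there and was not called. Nefh, a neurofilament gene, was the single lower clone of 25 neuronal ones at -0.84. In the 4 stress comparisons, 0 clones of these lists were called. Over all clones 0.0832% to 0.289% were called there, so lists of this size would hold few calls. No clone of microglia (10), endothelial and mural cells (17) or choroid plexus and ependyma (10) was called anywhere. The part of tissue composition in the Tcf7l2 and Bcl11b values was not tested.

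The pathways that the members act in were counted in the same way. Of 30 clones of Wnt ligands and receptors, 22 of beta-catenin control and 9 of Wnt target genes, limma called 0 in every comparison, beside 3.62% of all clones between the strains and 0.0832% to 0.289% after stress, so lists of this size would hold few calls. At an unadjusted p under 0.05 the 9 target clones gave at most 4 (C57BL/6J at 4 h, all higher), the beta-catenin clones 1 to 4 and the ligand and receptor clones 0 to 6 in a comparison, beside 9.28% to 15.4% of all clones (12.3% in C57BL/6J at 4 h). Of 24 clones of TCF/LEF factors and their cofactors, the called ones between the strains were the Lef1 clones and Tcf7l2 named above, and the only one called after stress was Tcf7l2 in DBA/2J at 8 h. Both clones of Tcf7, the T-cell relative of Tcf7l2, ranged over -0.31 to 0.29 without a call. Of 46 clones of BCL11 factors and partner complexes, Chd4, the remodelling ATPase of the NuRD complex, was lower between the strains (spot 19603, log2 ratio -0.80, standard error 0.13, limma adjusted p = 0.0028), and Bcl11b in C57BL/6J at 8 h was the other call. Bcl11a, its closest relative, ranged over -0.42 to 0.32 on its 2 clones and was not called.

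The named clones whose ratios followed spot 3616 most closely over the 50 arrays, after each dye term was subtracted, were Cbx3 (chromobox homolog 3, r = 0.86), interleukin 18 (r = 0.84) and Glul (spot 13998, r = 0.82). They shared the high ratio between the strains, at 0.88, 0.76 and 1.08, all 3 called. The means of the comparisons stayed in the ratios that r compared. Clones were therefore chosen in part for means like those of the member, here and for Bcl11b, and shared means are no separate result. In DBA/2J at 8 h Cbx3 had -0.33 (standard error 0.09, limma adjusted p = 0.17), the sign of Tcf7l2, and the others had 0.01 and -0.07. For Bcl11b spot 11829 the closest were a small GTPase homolog (r = 0.61), regulator of G-protein signaling 2 (r = 0.59) and acetyl-Coenzyme A synthetase 2 (r = 0.57), which at 8 h in C57BL/6J had -0.31, -0.62 and -0.51, none called. The dim members had a highest r of 0.49 to 0.59 each, with 0.59 at spot 963, which exceeded the empty spots on 0 arrays. The r values of spot 11829 were thus about as high as those of a clone without readable signal. The arrays share pools and slides of the same design, so these r values describe the arrays and carry no p.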

How the data were processed

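For each of 24192 spots on 50 two-colour cDNA arrays, the authors deposited the Cy5 and Cy3 intensity with local background, quantified with fixed circles and not transformed. A second deposited table, of log2 ratios that the authors normalized by a procedure described elsewhere, served as an alternative. It has 19047 spots and 10240 empty cells.

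Background was corrected by normexp (offset 50) and ratios by global loess, and each comparison was fitted in limma 3.58.1 (R 4.3.3) with a dye term. The Benjamini-Hochberg adjustment covered 22824 clones, without 1368 control spots. Differences were fitted over 20 arrays. The number of arrays limits the precision, with a median standard error of 0.158 to 0.186. The fit was tested on simulated data. Python 3.11.15 with pandas 2.3.3 and numpy 2.4.6 made the tables, and matplotlib 3.10.9 the figures.

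Clones were matched to genes by the full gene name on the array, or by a clone or sequence name that RefSeq lists as a synonym. Clones were named if they were members, among the leading called clones of a list, the highest or lowest clone of a region list, or among the 3 most like a member; the bright list clones were named after their values were seen. The members and the 16 gene lists were chosen with earlier results of these data known. Alternatives changed the background correction, normalization, dim-clone filter, dye term, test, source table, scan day, replicate block and arrays used. Replicate numbers did not pair the arrays.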

Additional observations from a re-analysis of the deposited data

Results flagged for a closer look

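The 8 h change of Tcf7l2 spot 3616 differed between the strains. All 10 DBA/2J arrays lay below 0 and all 10 C57BL/6J arrays lay above it, and the fitted difference, DBA/2J minus C57BL/6J, was -0.80 (standard error 0.12). The DBA/2J side was among the values that the gene was picked on, so the difference is a description. Of the 30 groups of 10 array values (6 clones in 5 comparisons), 0 held a value far from the others, where chance flags about 1 in 20.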

How the results depend on the processing

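Over the alternatives, Tcf7l2 spot 3616 and Bcl11b spot 11829 kept their direction in all 5 comparisons. Their called values were no longer called in these cases, and the cause was not tested. For Tcf7l2 between strains these were DBA/2J in Cy5 alone (0.67), DBA/2J in Cy3 alone (0.67) and both orientations averaged (0.67). For Tcf7l2 in DBA/2J at 8 h they were no background subtraction (-0.52), no dye term (-0.52), the 8 h pool in Cy5 alone (-0.61) or in Cy3 alone (-0.43), scan day as a fixed term (-0.51) and averaged orientations (-0.52). For Bcl11b in C57BL/6J at 8 h they were no dye term (-0.74), Cy5 alone (-0.56), Cy3 alone (-0.92), scan day (-0.73) and averaged orientations (-0.74). Without 1 replicate, Tcf7l2 ranged over -0.54 to -0.49 in DBA/2J at 8 h and Bcl11b over -0.77 to -0.72 in C57BL/6J at 8 h.

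The dim clones changed sign. Spot 963 gave 0.043 without background subtraction, 0.030 with print-tip loess, 0.014 in Cy5 alone and 0.042 from the authors' table in C57BL/6J at 4 h, -0.025 from that table in C57BL/6J at 8 h, and -0.018 and 0.16 in Cy3 alone in DBA/2J at 4 h and 8 h. Spot 9018 gave 0.11 and -0.10 in C57BL/6J at 4 h and 8 h and -0.065 in DBA/2J at 4 h in Cy3 alone, and 0.12 in DBA/2J at 8 h and -0.14 between strains in Cy5 alone. Spot 12713 gave 0.017 in C57BL/6J at 8 h and -0.53 between strains in Cy5 alone, -0.0069 and -0.23 in DBA/2J at 4 h and 8 h in Cy3 alone, and -0.039 there at 8 h without background subtraction. Spot 18778 gave 0.17 in DBA/2J at both times and -0.047 between strains in Cy3 alone, and 0.0049 in DBA/2J at 8 h with median centring. Without 1 replicate, spot 963 ranged over -0.15 to 0.091 and spot 9018 over -0.31 to 0.044 in C57BL/6J at 4 h, and spot 9018 over -0.10 to 0.46 between strains. Spot 12713 ranged over -0.019 to 0.17 and -0.045 to 0.30 in DBA/2J at 4 h and 8 h and -0.12 to 0.22 between strains, and spot 18778 over -0.14 to 0.034 and -0.22 to 0.056 in DBA/2J at 4 h and 8 h.

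In each orientation alone, the called clones of the thalamus list fell to 0, against 4 between strains and 1 in DBA/2J at 8 h, and the cortex, hippocampus and striatum list had 0 in C57BL/6J at 8 h, against 1. With the authors' table the cortex, hippocampus and striatum list had 1 between strains, against 0. Over all clones, calls ran from 35 to 1236 between strains (827 as reported), 0 to 141 and 1 to 197 in C57BL/6J at 4 h and 8 h (66 and 19), and 0 to 355 and 0 to 132 in DBA/2J at 4 h and 8 h (35 and 36). The replicate block had a correlation of -0.0097 and changed no member's call.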
